A study of Mus musculus with 6 samples.

Results

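The 10 genes of the NF-kB system were examined in mouse embryonic fibroblasts without Rap1: the subunits Nfkb1, Nfkb2, Rel, Rela and Relb, the inhibitors Nfkbia, Nfkbib and Nfkbie, the kinase Ikbkb and the brake Tnfaip3. Every non-control probe whose RefSeq accession in the scanner files belonged to one of these 10 genes was taken, which gave 10 probes for 9 genes among 41174 probes in all. No probe was matched to Nfkb1, which is not analysed here. Of the 9 genes, 8 were well above background on all 6 arrays and entered the comparison, and Rel did not.

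RNA of 3 Rap1 knockout and 3 wild-type samples was labelled with Cy3 and hybridised to 1-colour Agilent mouse arrays. Both groups were fibroblasts infected with the SV40 large T antigen, a viral protein that binds p53 and the pocket proteins, and with Cre recombinase, and both were grown with puromycin. In the knockout, the design describes a floxed exon 3 of Terf2ip, the gene of Rap1, that Cre removes. Nothing in the labels ties the samples of a group to different embryos or cultures, and the p-values therefore cover the spread between these 6 samples, which may be technical.

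NF-kB is a family of dimeric transcription factors that the inhibitors (IkB proteins) hold in the cytoplasm. Signals from tumour necrosis factor, interleukin-1 or Toll-like receptors activate the IkB kinase complex, whose catalytic subunit Ikbkb phosphorylates the inhibitors and marks them for destruction, so that the dimers reach the nucleus. Several genes of the system, among them Nfkbia, Nfkbie, Tnfaip3, Nfkb2 and Relb, are themselves NF-kB targets and form feedback loops. Rap1 is a telomere protein of the shelterin complex, and in human cells it has also been reported in the cytoplasm, bound to IkB kinase.

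The promoter windows of the members were searched for the DNA motif that NF-kB binds, because several of these genes are known NF-kB targets. RefSeq windows of GRCm38.p6, 300 bases around each transcript start, were at hand for 7 of the 10 genes (Nfkb2, Rel, Rela, Nfkbia, Nfkbib, Nfkbie and Tnfaip3). The kappaB consensus, searched on both strands, was found in 7 of their 10 windows and in 5 of the 7 genes, while 8.46% of 32841 windows genome-wide held it. Windows of one gene can overlap and share a match, and matches can overlap each other. The Nfkb2 match given below as 225 bases before a start also lies 10 bases after a further start. Examples are shown on the strand of the gene, 1 or more for each gene with a match, with the matched bases in capitals. A match that starts with GGAA was read on the opposite strand.
Nfkb2, 38 bases before a start, chr19:46304689-46304718, plus strand: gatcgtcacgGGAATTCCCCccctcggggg
Nfkb2, 11 bases before the same start, chr19:46304716-46304745, plus strand: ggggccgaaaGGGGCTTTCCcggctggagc
Nfkb2, 225 bases before another start, chr19:46305695-46305724, plus strand: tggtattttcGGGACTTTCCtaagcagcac
Rel, 91 bases before the start, chr11:23771041-23771070, minus strand: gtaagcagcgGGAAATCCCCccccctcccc
Nfkbia, 29 bases before the start, chr12:55492657-55492686, minus strand: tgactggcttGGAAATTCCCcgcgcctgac
Nfkbie, 106 bases before the start, chr17:45555584-45555613, plus strand: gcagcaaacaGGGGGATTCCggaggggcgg
Tnfaip3, 12 bases before the start, chr10:19015403-19015432, minus strand: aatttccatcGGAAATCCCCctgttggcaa
The windows of Rela and Nfkbib and 1 of the 2 windows of Tnfaip3 held no match, which says only that the consensus is not in those 300 bases. The start given for Tnfaip3 is that of its other window.

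All levels are background-corrected signals divided by the 75th percentile signal of the same array. Per array, 25373 to 27601 of 41174 probes were well above background, and the number of arrays limits the precision. Terf2ip read 0.00416, 0.00185 and 0.00362 on knockout arrays 1, 2 and 3, where it was not well above background, against 0.297, 0.318 and 0.284 on the wild-type arrays. It fell at least 38.3-fold (limma adjusted p = 0.00789), a bound set by the lowest signal well above background on the knockout arrays. The position of its probe relative to exon 3 was not determined. The log2 difference between wild-type arrays 2 and 3 had an SD of 0.25 over all features, while that of the other pairs was 0.83 to 1.25. The counts of separated genes are therefore also given with these 2 arrays averaged. Averaging can leave such a count unchanged or raise it, but cannot lower it. The arrays lay on 2 slides: knockout array 1 and wild-type array 1 on slide 1, the other 4 on slide 2.

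The cells carried the marker genes of fibroblasts: 11 of 12 were well above background on all 6 arrays, and the twelfth, Lum, on 5. The summed signal of these 12 genes was 303 to 552 on the knockout arrays and 584 to 641 on the wild-type arrays. Their log2 differences (knockout minus wild type) ran from −3.59 for Dcn to 0.60 for Pdgfrb, with 4 above 0 and 8 below. Thy1 had −2.64 and Pdgfra −2.38, and none of the 12 passed in limma. On knockout array 1 Dcn read 0.0226, against 55.2 on wild-type array 1. Of 9 leukocyte markers with a probe, Ptprc, Adgre1, Itgam and Spi1 were well above background on no array. Cd14 and Lyz2 were so on all 6, and Csf1r, Aif1 and Fcgr1 on some. The sum was 0.825 to 1.46 in knockout and 1.30 to 1.71 in wild type, most of it Cd14. Of 6 endothelial markers, 4 were above background on no array, with sums of 0.0278 to 0.226 in knockout and 0.0474 to 0.218 in wild type. Epithelial markers summed to 4.04 to 13.0 in knockout and 2.09 to 3.11 in wild type, almost all of it Krt18, a keratin also found in cultured fibroblasts. Without Krt18 the other 5 summed to 0.179 to 0.287 in knockout and 0.124 to 0.363 in wild type, and Krt8, its usual partner, had a log2 difference of −1.74, against 1.53 for Krt18. The fibroblast sums and Krt18 did not overlap between the groups, and their part in the results below was not tested. In RNA of whole cultures, fewer cells of a type and less RNA per cell cannot be told apart.

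Knockout cells were compared with wild-type cells to ask which of these transcripts depend on Rap1. None of the 8 measured genes passed the test over all features in either direction (limma adjusted p under 0.05), a threshold that 0.0102% of 19638 features passed, and 3 of the 8 had an unadjusted limma p under 0.05 (Nfkb2, Rela and Nfkbia), against 10.3% of all features. All 8 had a log2 difference (knockout minus wild type) above 0, as did 55.4% of all features. The median over the 8 was 0.61, against 0.07 over all features. The 3 knockout arrays lay above the 3 wild-type arrays for 5 members (Nfkb2, Rela, Nfkbia, Nfkbib and Ikbkb) and below them for 0. Of all features, 17.2% were separated, 11.3% with knockout higher and 5.89% with knockout lower. With wild-type arrays 2 and 3 averaged, the same count was 5 of 8, against 12.5% of all features. Averaging 2 arrays cannot undo a separation, so this count could not fall and is no check on the separation. None of the 8 then had an unadjusted limma p under 0.05. The genes share arrays and regulate one another, so the 8 are not independent observations.

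**Figure D1:**
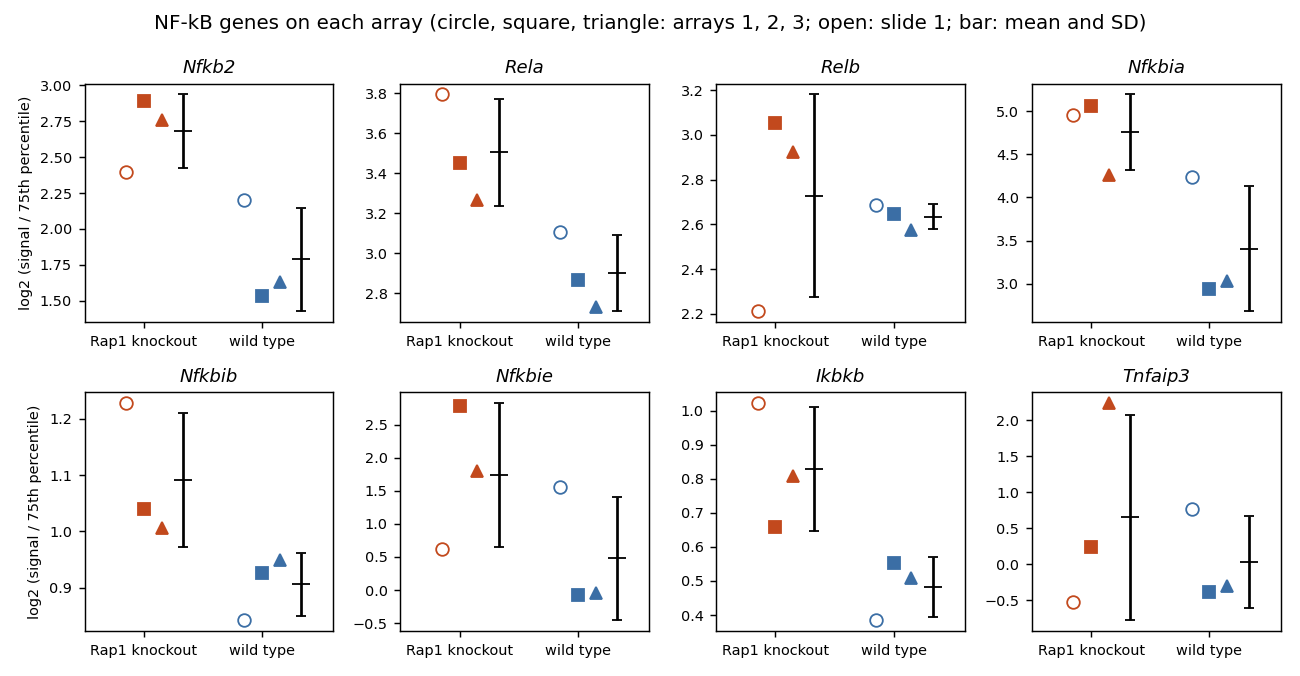
Log2 of the signal over the 75th percentile signal of its array for the 8 measured NF-kB genes, with Rap1 knockout arrays on the left and wild-type arrays on the right of each panel. Circles, squares and triangles are arrays 1, 2 and 3, open symbols lie on slide 1, and bars give the mean and SD of 3 arrays; axes differ between panels and do not start at 0. The groups are separated for Nfkb2, Rela, Nfkbia, Nfkbib and Ikbkb and overlap for Relb, Nfkbie and Tnfaip3.

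Among the subunits, Nfkb2, whose precursor is processed to the p52 subunit of the non-canonical pathway, had the smallest p of the members. It read 5.25, 7.41 and 6.76 on knockout arrays 1, 2 and 3, against 4.59, 2.89 and 3.09 on wild-type arrays 1, 2 and 3. Both slide-1 arrays lay between the slide-2 groups, so that knockout array 1 exceeded wild-type array 1 by a factor of only 1.14, while the factor on slide 2 was 2.37. The log2 difference was 0.89 (SE 0.28, 95% interval 0.23 to 1.56, limma adjusted p = 0.472).

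Rela, the subunit with the main transactivation domain of the canonical pathway, was read by 2 probes. The probe of higher signal gave 13.9, 10.9 and 9.63 in knockout, against 8.61, 7.29 and 6.63 in wild type. A second probe, printed in 10 spots, gave 0.920, 0.777 and 0.641 in knockout and 0.625, 0.495 and 0.487 in wild type. With either probe every knockout array lay above every wild-type array, and therefore on each slide too. The log2 difference of the brighter probe was 0.60 (SE 0.24, limma adjusted p = 0.486), with 0.69 on slide 1 and 0.56 on slide 2, and that of the other probe was 0.54.

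Relb, the partner of p52, read 4.63, 8.29 and 7.58 in knockout, against 6.43, 6.25 and 5.95 in wild type. Knockout array 1 was the lowest of the 6 and the other 2 knockout arrays were the highest, so the groups overlapped around a tight wild type. The log2 difference was 0.09 (SE 0.28, 95% interval −0.58 to 0.77, limma adjusted p = 0.895). Rel, a subunit best known from lymphocytes, was well above background on 1 knockout array and 1 wild-type array only, with signals of 0.00187 to 0.00694 in knockout and 0.00147 to 0.00965 in wild type. These lie near the background of the array, and no fold is given.

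Of the inhibitors, Nfkbia (IkB-alpha), the inhibitor resynthesised fastest after activation, read 31.0, 33.4 and 19.1 in knockout, against 18.9, 7.68 and 8.21 in wild type. The groups did not overlap, but knockout array 3 and wild-type array 1 were almost level. The log2 difference was 1.35 (SE 0.42, 95% interval 0.34 to 2.36, limma adjusted p = 0.472), the largest of the 8.

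Nfkbie (IkB-epsilon), an inhibitor induced later than Nfkbia, read 1.54, 6.90 and 3.49 in knockout, against 2.94, 0.948 and 0.974 in wild type. On slide 1 the knockout array was the lower, by a factor of 0.522, and on slide 2 the knockout arrays were 5.11 times the wild-type arrays. The log2 difference over all arrays was 1.26 (SE 0.67, 95% interval −0.34 to 2.85, limma adjusted p = 0.511), and it ran from 0.73 without knockout array 2 to 1.81 without knockout array 1. Nfkbib (IkB-beta), an inhibitor that is not strongly induced by NF-kB, read 2.34, 2.06 and 2.01 in knockout and 1.79, 1.90 and 1.93 in wild type. Its groups were separated by a narrow gap, with a log2 difference of 0.19 (SE 0.20, 95% interval −0.30 to 0.67, limma adjusted p = 0.691).

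Ikbkb, the catalytic kinase subunit that phosphorylates the inhibitors, read 2.03, 1.58 and 1.75 in knockout, against 1.31, 1.47 and 1.42 in wild type. Here too the groups did not overlap, and the gap was widest on slide 1. The log2 difference was 0.35 (SE 0.22, 95% interval −0.17 to 0.86, limma adjusted p = 0.534).

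Tnfaip3 (A20), a ubiquitin-editing enzyme that ends signalling to the kinase, read 0.695, 1.18 and 4.72 in knockout, against 1.70, 0.767 and 0.814 in wild type. Knockout array 3 stood far above all others and knockout array 1 was the lowest of the 6. The log2 difference was 0.62 (SE 0.72, 95% interval −1.10 to 2.35, limma adjusted p = 0.705), and it was −0.17 without knockout array 3.

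**Figure D2:**
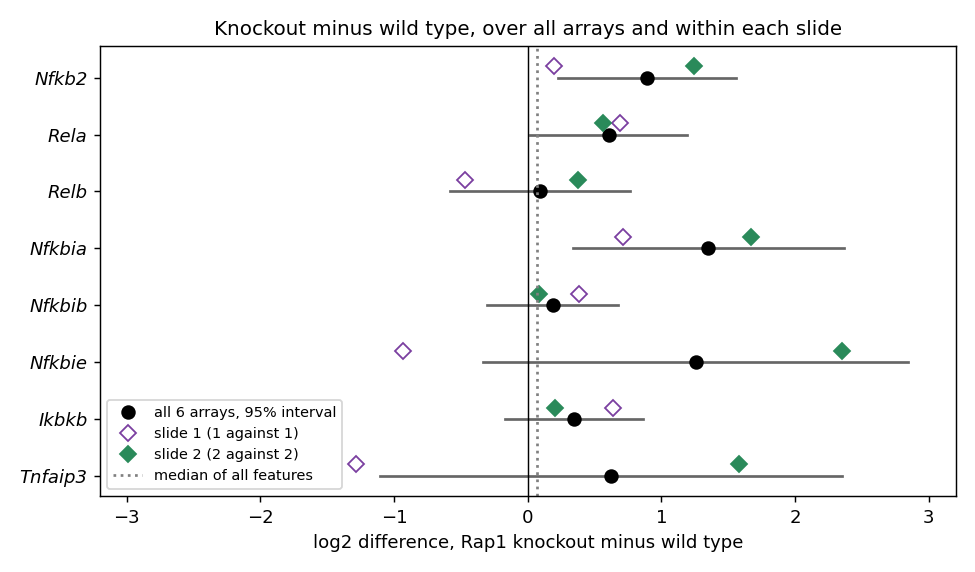
Log2 difference (Rap1 knockout minus wild type) of each measured NF-kB gene over all 6 arrays with its 95% interval (black, grey bar) and within slide 1 (open diamonds, 1 knockout and 1 wild-type array) and slide 2 (green diamonds, 2 of each); the dotted line is the median of all features. On slide 2 all 8 differences lie above 0, while on slide 1 Relb (−0.47), Nfkbie (−0.94) and Tnfaip3 (−1.29) lie below 0.

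The members were also compared within each slide. On slide 2 all 8 had a log2 difference above 0 (median 0.90), as did 10502 of 19638 features (median 0.045). On slide 1, with 1 array of each group, 5 of the 8 did (median 0.29), as did 11383 of all features (median 0.15). Thus 5 of 8 lay above 0 on both slides, against 36% of all features. These are the 5 genes separated over all arrays. Separation fixes the sign on each slide, so this count restates the earlier one. Relb, Nfkbie and Tnfaip3 had opposite signs on the slides, 3 of 8, where 39.4% of all features did. The difference between the slides passed the test for none of the 8 (group-by-slide term in limma, smallest adjusted p = 0.133 for Nfkbie with an unadjusted limma p under 0.05 for Nfkbie and Nfkb2), and for 1.33% of all features. Slide 1 and the single arrays on it cannot be told apart.

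Part of this pattern lay within wild type. Wild-type array 1 read 3.06 times the average of wild-type arrays 2 and 3 for Nfkbie, 2.38 times for Nfkbia, 2.15 times for Tnfaip3 and 1.54 times for Nfkb2. For Rela the factor was 1.24, for Relb 1.05, for Nfkbib 0.936 and for Ikbkb 0.904. Over all 6 arrays the highest signal was 7.28 times the lowest for Nfkbie, 6.79 times for Tnfaip3, 4.34 times for Nfkbia and 2.56 times for Nfkb2. The same ratio was 2.09 for Rela, 1.79 for Relb, 1.55 for Ikbkb and 1.31 for Nfkbib. Whether it goes with the motif matches was not tested. As a description over 6 arrays that include the near-alike pair, the profiles of Nfkb2 and Nfkbie correlated at 0.90, those of Rela and Nfkbia at 0.92 and those of Nfkbib and Ikbkb at 0.94, the 3 highest of all pairs among the 8 genes. The lowest were Relb with Nfkbib at −0.43, Relb with Ikbkb at −0.35, Nfkbib with Tnfaip3 at −0.25 and Rela with Relb at −0.19.

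The other genes of the pathway, receptors, adaptors, ubiquitin enzymes, kinases and regulators, had 57 of 60 listed genes measured. In limma 0 of them passed in either direction, and 10 had an unadjusted limma p under 0.05, against 10.3% of all features. Their median log2 difference was 0.08, against 0.07 for all features, with 37 above 0 and 20 below, where 55.4% of all features lay above 0. The groups were separated with knockout higher for 10 and lower for 2 (11.3% and 5.89% of all features). With wild-type arrays 2 and 3 averaged the counts, which could not fall, were 11 and 2 (2464 and 1282 of all 19638 features). By role, the median was −0.22 for receptors, −0.08 for atypical inhibitors, 0.06 for upstream kinases, 0.15 for adaptors, 0.15 for ubiquitin enzymes and 0.26 for restraining genes. The 9 receptors ran from −1.65 to 1.26, with 4 above 0 and 5 below, and no difference between roles was tested.

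At the level of the receptors, Il1rap, the co-receptor of interleukin-1, had the smallest p. It read 0.113, 0.0834 and 0.130 in knockout, against 0.210, 0.232 and 0.222 in wild type, which is −1.05 as a log2 difference (SE 0.25, limma adjusted p = 0.354). The groups did not overlap, and the difference was −0.89 on slide 1 and −1.13 on slide 2. Tlr4, the receptor of lipopolysaccharide, differed by −1.65 (SE 0.53) and Tlr2, a receptor of bacterial lipopeptides, by 1.26 (SE 0.55). For both the groups overlapped. Among the adaptors, Traf2, which joins tumour necrosis factor receptors to the kinases, had a log2 difference of 0.59 (SE 0.28), Ticam1, the adaptor of Tlr3, one of 0.53 (SE 0.31) and Malt1, a protease of the CARD-BCL10 complex, one of −0.52 (SE 0.33).

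Of the kinases upstream, Map3k14 (NIK), which drives the processing of Nfkb2, read 2.30, 3.28 and 2.49 in knockout, against 2.09, 0.951 and 0.924 in wild type. Its groups did not overlap, but its slide-1 arrays were nearly level. The log2 difference of Map3k14 was 0.14 on slide 1 and 1.61 on slide 2, and over both it was 1.12 (SE 0.38, limma adjusted p = 0.475). Tab1, a partner of the kinase Map3k7, had a log2 difference of 0.79 (SE 0.27; slides 0.81 and 0.78), and Map3k3, another upstream kinase, had 0.63 (SE 0.31). Both were separated between the groups. In the linear ubiquitin machinery, Sharpin, a subunit of the LUBAC ligase, differed by 0.65 (SE 0.23) with separated groups, its partner Rbck1 by 0.37 (SE 0.33), and Ube2v1, which builds chains with Ube2n, by 0.37 (SE 0.21).

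Among the restraining genes, Optn, a ubiquitin-binding adaptor, had a log2 difference of 0.76 (SE 0.26), Otulin, which removes linear ubiquitin chains, one of 0.60 (SE 0.23) and Tnip1, a partner of Tnfaip3, one of 0.95 (SE 0.39, limma adjusted p = 0.486). These had the smallest p, and of all 11 restraining genes 7 lay above 0 and 4 below, down to −0.66. In the group of atypical inhibitors, Nfkbiz is a nuclear IkB protein needed for a subset of targets. Nfkbiz read 0.214, 0.960 and 1.00 in knockout, against 2.51, 2.14 and 1.95 in wild type. Every knockout array lay below every wild-type array, and the log2 difference was −1.89 (SE 0.60, limma adjusted p = 0.472), with −3.55 on slide 1 and −1.06 on slide 2. Nfkbid and Nfkbil1 differed by −0.16 (SE 0.48) and 0.27 (SE 0.29).

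**Figure D3:**
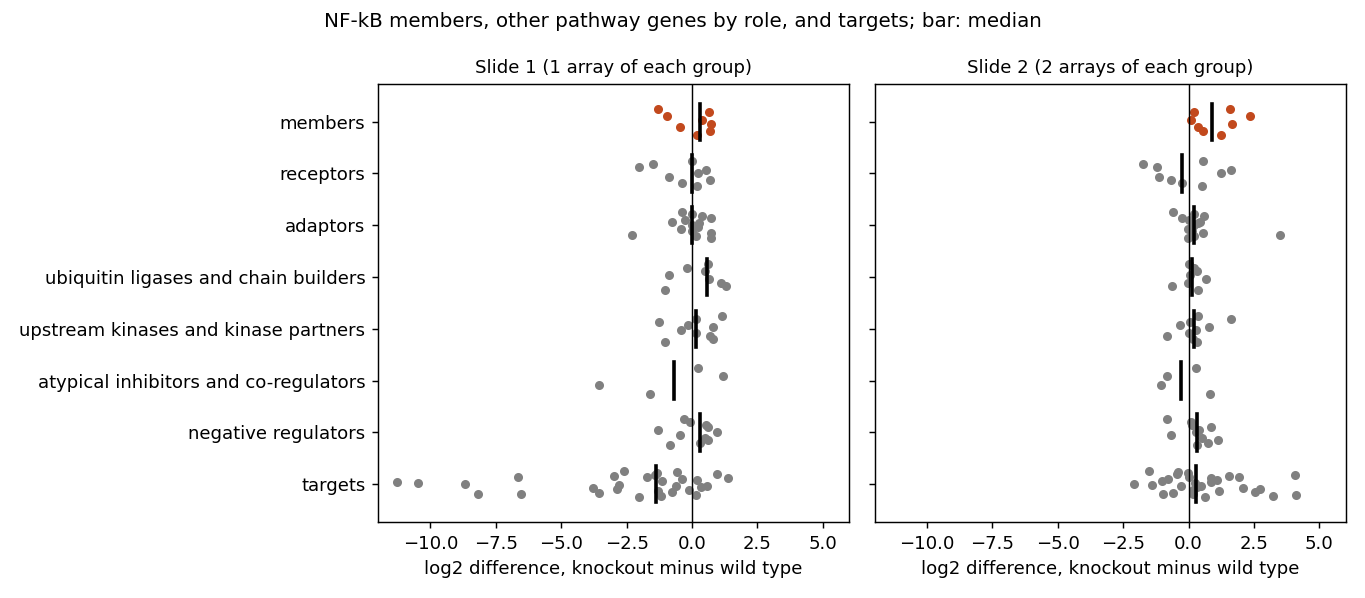
Log2 difference (Rap1 knockout minus wild type) of each measured gene within slide 1 (left) and slide 2 (right), for the 8 NF-kB members (red), 57 other pathway genes by role and 30 targets (grey), with the median of each row as a bar. The targets spread widely on slide 1, where 24 of 30 lie below 0, and on slide 2 their median is 0.27.

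Of 41 listed target genes outside the members, 40 had a probe and 30 were measured. Cxcl2, Il6, Il1a, Il1b, Tnf, Csf2, Csf3, Mmp9, Lcn2 and Nos2 had a probe but did not enter the comparison. It kept only probes well above background on every array of either group. In limma 0 of the 30 passed and 4 had an unadjusted limma p under 0.05, against 10.3% of all features. The groups were separated with knockout higher for 2 and lower for 2 (11.3% and 5.89% of all features). Ccl20, which entered the test only through wild type, is among the 4 and among those with knockout lower. The counts of separated targets, which could not fall, were the same with wild-type arrays 2 and 3 averaged (2464 and 1282 of all 19638 features). The median log2 difference was −0.14, with 14 above 0 and 16 below, against 55.4% of all features above 0. On slide 1 the median was −1.37, with 24 of 30 below 0, where 8255 of 19638 features were below 0 (median 0.15). On slide 2 the targets' median was 0.27, with 18 above 0 and 12 below, where 10502 of all features were above 0 (median 0.045). Among the 25 targets well above background on all 6 arrays, 3 had an unadjusted limma p under 0.05. The median of these 25 was 0.02 over all arrays, −1.17 on slide 1 (19 below 0) and 0.31 on slide 2 (11 below 0). Relative to each gene's mean, the median of the targets was −0.84, 0.41 and 0.30 on knockout arrays 1, 2 and 3, and 0.68, −0.16 and −0.19 on wild-type arrays 1, 2 and 3, so the slide-1 arrays were the extremes in both groups. The same arrays held the extremes of Nfkbie within wild type and within knockout.

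The targets of smallest p lay in both directions. Ccl7, a monocyte chemokine, read 3.44, 3.33 and 9.35 in knockout, against 3.11, 0.362 and 0.287 in wild type (log2 difference 2.79, SE 0.95, limma adjusted p = 0.475). Mmp3, the matrix protease stromelysin, read 0.0115, 0.647 and 1.10 in knockout, against 4.67, 3.65 and 3.53 in wild type (log2 difference −4.28, SE 1.62, limma adjusted p = 0.486). For Mmp3, knockout array 1 gave the lowest signal of the 6. Ccl20, a chemokine of lymphocytes and dendritic cells, read 0.00498, 0.0261 and 0.0153 in knockout, against 0.458, 0.0439 and 0.0350 in wild type. It entered the test through wild type, being well above background on only 2 of 3 knockout arrays, and no fold is given. On slide 2 alone limma called Tlr2 (1.62), Traf1 (3.49), C3 (1.93) and Cxcl10 (2.55), against 1.54% of all features. These 4 were named after their values were seen, with the near-alike wild-type arrays as the only wild type.

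Genes with a profile most like that of Nfkb2 were sought among 11239 named features above background on all 6 arrays. The highest Pearson correlations over 6 arrays were those of Gtf2ird1 (0.99), the nuclear import receptor Kpna2 (0.99), Syt12 (0.99), Add2 (0.99) and the neurotrophic factor Gdnf (0.99), and 291 features had one above 0.9. Of these 5, Gdnf had the widest range, with 0.0799, 0.239 and 0.226 in knockout and 0.0810, 0.0259 and 0.0249 in wild type.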

How the data were processed

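Each array has a deposited scanner output of intensity per spot, made with Agilent Feature Extraction (version 10.5.1.1 per the file headers), which subtracted background and removed spatial trends to give the processed signal used here. A deposited table gives log2 values for all 6 arrays. Per the submitters' processing notes limma was used, and its settings are not given in the sources used here. Set against normexp-corrected, quantile-normalised scanner signals, its knockout columns 1, 2 and 3 matched scanner files 2, 3 and 1 of the same group best. Group means are untouched by that order; column medians were 6.86 to 6.87. Array numbers here are those of the scanner files.

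Control spots (1639 of 45018) and outlier spots (74 to 120 per array) were left out, spots of a probe were averaged as log2, and the 75th percentile of each array was subtracted. Kept were 25513 probes that exceeded background clearly in every array of either group. Names came from RefSeq accessions (GRCm38.p6 table; 23374 probes matched, 17800 stayed unnamed). Since the scanner headers give build mm8, only promoter windows have coordinates. A gene was its kept probe of highest mean. Knockout was compared with wild type over 19638 features by limma 3.58.1 in R 4.3.3 (lmFit, eBayes, 2-sided, Benjamini-Hochberg 0.05, no block). On simulated data of this size (20 runs, 200 changed features), 45.5% of log2 changes of 2 and 2.31% of changes of 1 were recovered. The members, gene lists and tests were chosen with earlier results of these data known. Named were all members and, in each role group and the target list, the 3 genes of smallest p, besides Terf2ip and the 5 named features most correlated with the member of smallest p. Deviations of arrays with the same number correlated at 0.01, 0.05 and −0.08, so the numbers were not taken as pairs.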

Additional observations from a re-analysis of the deposited data

How the results depend on the processing

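Of the 8 member genes, 0 passed in limma under all 19 alternatives with a test (unadjusted limma p under 0.05 for 0 to 4 of them, smallest adjusted p = 0.0683 for Nfkb2 on slide 2 alone). Their median log2 difference was 0.90 on slide 2 alone and 0.29 on slide 1 alone, and 0.49 to 0.85 without single arrays, with the highest value without wild-type array 1. Scaling by the array median moved the median of all features by 0.11 and keeping dim probes moved it by −0.15; relative to all features the members' median was 0.55 in the main comparison, 0.55 with median scaling and 0.70 without the filter. Relb turned below 0 with quantile normalisation (−0.025) and in the value table (−0.037), Relb, Nfkbie and Tnfaip3 on slide 1 alone (−0.47, −0.94 and −1.29), and without single arrays Relb ran from −0.068 to 0.35 and Tnfaip3 from −0.17 to 1.21, while Nfkbie ran from 0.73 to 1.81 and Nfkbib from 0.12 to 0.23. Nfkb2, Rela, Nfkbia, Nfkbib and Ikbkb lay above 0 under all 20 alternatives. Since their groups were separated, leaving out or averaging arrays or taking 1 slide alone could not turn the sign. A changed variance model or block could not turn it either. Only alternatives that changed the signals, the scaling or the probes could have done so. Over all features 2 were called, against 4 with the mean of a gene's probes, 6 in the probe-level fit, 303 on slide 2 alone and 0 with probes above background on all arrays, with the slide block or with wild-type arrays 2 and 3 averaged (1780, 3482 and 688 at an unadjusted limma p under 0.05). With the replicate number as a block 0 features and 0 members passed in limma, and 2348 features had an unadjusted p under 0.05. Without single arrays the count ran from 0 (wild-type array 2 or 3, or knockout array 1) to 64 (wild-type array 1). On slide 2 alone 2 pathway genes and 2 targets were called, and both counts were 0 under the other alternatives, single arrays left out included. Causes were not tested. Signal over background limits Rel and, in knockout, Terf2ip.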
